A study of Mus musculus with 6 samples.

Results

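Multimerin-2 is a secreted glycoprotein that endothelial cells lay down in the matrix on their outer side. There it binds the surface lectins CD93 and CLEC14A, and also CD248. These receptors belong to the group XIV C-type lectins, transmembrane proteins with a lectin-like head, and in sprouting vessels the contacts are known to support adhesion, migration and tube formation. The multimerins share an N-terminal EMI domain and a C-terminal C1q-like domain with the EMILINs, glycoproteins of elastic fibres and other matrices. The 7 genes described here are Mmrn2, its receptors Cd93, Clec14a and Cd248, and the related matrix genes Mmrn1, Emilin1 and Emilin2. They were taken by symbol from a table of 24411 genes, and all 7 were found in it. They were chosen by their pathway with their levels in these libraries, and so their difference between the lines, already known. Their levels and fold changes are therefore given as a description, with no p-value.

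RNA-seq was done on bulk cultures of bEnd.3 and UV2, both labelled as mouse endothelial cells, with 3 libraries each and 6 in all. bEnd.3 cells descend from mouse brain endothelium that the polyomavirus middle T antigen made immortal, and their strain is BALB/c. UV2, which the labels also write as UV♀2, has the strain (BALB/c x C57BL/6)F1, and its derivation is not given in the labels. Both lines had been grown to confluency on 10-cm dishes, washed, held for 3 days without serum and detached with trypsin, with no treatment that set them apart. Each group is a single cell line, so a difference of line, of strain and of derivation cannot be told apart. In bulk RNA, fewer cells with a transcript and less transcript per cell cannot be told apart either. The labels do not state whether replicate libraries stem from independent cultures. The p-values then reflect only how far these libraries spread, and that spread may be technical.

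Libraries were made with a stranded mRNA kit and held 21306441 to 28748128 expected counts. The endothelial label was checked on 10 marker genes, all of which were detected in every library. Their summed level was 11064 to 11898 CPM in bEnd.3 and 10947 to 11996 CPM in UV2, where CPM is the usual count per fixed library total, after TMM scaling of those totals. Cdh5 was the largest part of that sum, at 3957 ± 273 CPM in bEnd.3 and 4038 ± 150 CPM in UV2. A similar sum can hide opposite differences of single markers. Single markers differed, and 4 were called lower in UV2, 1 higher and 5 in neither direction, beside 67.1% called over all tested genes. Robo4 (log2 fold change -2.34), Emcn (-1.47), Eng (-0.69) and Egfl7 (-0.67) were the lower ones and Tie1 (0.88) the higher one. Epithelial markers were at 0 but for 1 count of Cdh1 in UV2. Fold changes are log2 values of UV2 minus bEnd.3 with standard errors (SE) from edgeR's quasi-likelihood fit over all 12720 genes that passed its filter on low counts. Adjusted p-values come from that test with Benjamini-Hochberg adjustment over the same genes, and a gene was called at an adjusted p under 0.05. Levels are means ± SD over n = 3 libraries, and intervals and floors on counts cover counting error only.

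Multimerin-2 was the member that set the lines apart most, while its principal receptors were abundant in both. Mmrn2 stood at 189.7 ± 3.43 CPM in bEnd.3 and at 1.14 ± 0.607 CPM in UV2. Cd93 differed little, at 1038 ± 29.0 and 985 ± 18.8 CPM, and Clec14a was 1.55 times as high in bEnd.3. Of the EMILIN family, Emilin1 was lower in UV2, and Emilin2 and Mmrn1 were higher. Of the 7 members, 6 passed the filter, and of these 2 were called higher in UV2, 3 lower and 1 in neither direction. Over all tested genes 67.1% were called, 33.9% higher and 33.3% lower in UV2. The ranges of the lines did not overlap at 5 of the 6 members, and at 73.2% of all tested genes. Since the contrast was known when the members were chosen, nothing is read from these counts.

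**Figure D1:**
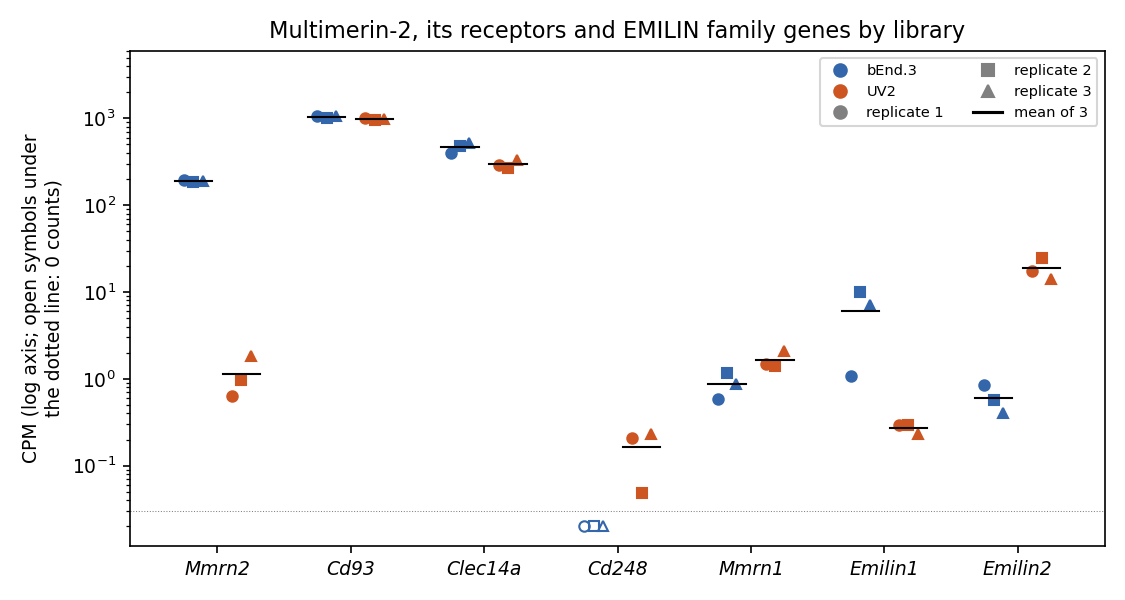
CPM of each member in each library on a log axis, bEnd.3 in blue and UV2 in orange, with a symbol for each replicate number, a bar at the mean of 3 libraries and open symbols under the dotted line for 0 counts. Mmrn2 lay between 186 and 193 CPM in bEnd.3 and between 0.634 and 1.81 CPM in UV2, while Cd93 lay between 969 and 1056 CPM in all libraries.

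The members lie on different chromosomes, given here in the GRCm38.p6 assembly, the assembly of mm10. Mmrn2 is on chromosome 14 (34375504 to 34404287), Cd93 on chromosome 2 (148436651 to 148443535), Clec14a on chromosome 12 (58264720 to 58269258) and Cd248 on chromosome 19 (5068078 to 5070640). Mmrn1 is on chromosome 6 (60944317 to 60989378), Emilin1 on chromosome 5 (30913387 to 30921279) and Emilin2 on chromosome 17 (71252172 to 71311556). In GENCODE M21 the coding transcript of Clec14a has 1 exon, as has that of Cd248, while Cd93 has 2 exons, Mmrn2 has 7 and Emilin1 has 8. Lengths used for levels per kilobase are the merged exons of the coding transcripts in that annotation. RefSeq's promoter table for this assembly held Clec14a, Mmrn1, Emilin1 and Emilin2. The 250 bases before the start are shown 5′ to 3′ for 3 genes that cover both directions of difference, Clec14a (lower in UV2) and Mmrn1 and Emilin2 (higher in UV2), so that the start regions can be compared. For Clec14a the last 32 bases, which GENCODE places inside the transcript, are left off. Capitals mark matches on either strand to short core motifs of factor families in endothelium, and no marked matches overlap.
Clec14a, chr12:58269291-58269508, minus strand: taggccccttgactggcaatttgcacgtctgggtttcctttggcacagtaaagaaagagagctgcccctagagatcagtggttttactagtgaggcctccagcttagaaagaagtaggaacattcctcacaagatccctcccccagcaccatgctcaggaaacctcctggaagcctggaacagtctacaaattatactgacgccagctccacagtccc
Mmrn1, chr6:60944067-60944316, plus strand: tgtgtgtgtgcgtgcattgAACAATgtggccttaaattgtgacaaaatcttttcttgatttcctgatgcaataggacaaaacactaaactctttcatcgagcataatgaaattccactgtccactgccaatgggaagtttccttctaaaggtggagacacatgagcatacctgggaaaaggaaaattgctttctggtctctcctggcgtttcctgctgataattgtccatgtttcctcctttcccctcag
Emilin2, chr17:71311557-71311806, minus strand: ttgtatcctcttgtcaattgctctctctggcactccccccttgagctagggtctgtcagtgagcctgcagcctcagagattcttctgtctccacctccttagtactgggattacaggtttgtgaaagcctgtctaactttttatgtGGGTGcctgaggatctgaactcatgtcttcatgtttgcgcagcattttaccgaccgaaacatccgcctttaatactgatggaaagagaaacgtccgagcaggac
The letters searched were AGGAAG for ETS factors, AACAAT for SOX factors, AGATAA for GATA factors and CACCC for Kruppel-like factors. Mmrn1 has AACAAT, beginning 231 bases before the start. The table gives Emilin2 a pair of start sites, and the window shown is that of the upstream one. It has CACCC on the opposite strand at 104 bases, in a stretch that a noncoding transcript of the gene also covers. The window of the other start (chr17:71311012-71311261) held none of the motifs. In Clec14a the single match, CACCC on the opposite strand at 13 bases, lies in the part left off, and Emilin1 has AGGAAG at 41 bases, in a window that lies wholly inside its GENCODE transcript and is not shown. Among all 32851 entries of the table, windows of this length held AGGAAG in 29.5%, AACAAT in 9.42%, AGATAA in 9.99% and CACCC in 52.0%. A match is a run of letters and not evidence of binding.

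Mmrn2 encodes the secreted ligand of the axis. It had 193, 186 and 190.1 CPM in bEnd.3 replicates 1, 2 and 3, and 0.634, 0.969 and 1.81 CPM in UV2 replicates 1, 2 and 3. The bEnd.3 libraries lay close together, the UV2 libraries were all far below them, and UV2 replicate 3 was the highest of its line. The UV2 values rest on 15, 20 and 47 counts, against 4303 to 5602 counts in bEnd.3. The ratio of means was 167 and the fitted log2 fold change was -7.35 (SE 0.24). The transcript was thus detected in all UV2 libraries, at a low level that rests on few counts.

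Cd93 encodes a receptor of multimerin-2 that is also found on some blood and stem cells. Its levels were 1053, 1004 and 1056 CPM in bEnd.3 and 1006, 969 and 981 CPM in UV2. The lines overlapped, since UV2 replicate 1 lay above bEnd.3 replicate 2. The log2 fold change was -0.07 (SE 0.06), and it was -0.14 when libraries were scaled by total counts alone. Its expected counts were not whole in 5 of 6 libraries, so the authors' estimate divided some reads between Cd93 and other features. Clec14a, a receptor found mainly on endothelium, had 396, 479 and 516 CPM in bEnd.3 and 291, 269 and 335 CPM in UV2. Every UV2 library was below every bEnd.3 library, with bEnd.3 replicate 1 the nearest to them. Its log2 fold change was -0.63 (SE 0.12).

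Cd248 encodes endosialin, a lectin best known from pericytes and fibroblasts. It had 0 counts in each bEnd.3 library and 5, 1 and 6 counts in UV2 replicates 1, 2 and 3, or 0.211, 0.0485 and 0.231 CPM. The UV2 level was thus a trace, and UV2 replicate 2 held a single count. A count of 0 over the bEnd.3 libraries allows up to 3 counts, or 0.0393 CPM. The UV2 mean of 0.164 CPM was 4.16 times that floor. Such a ratio leaves out the counting error of the line that has counts. Cd248 did not pass the filter and has no fitted value. Of 10 mural and fibroblast markers, 3 were tested and all 3 were called higher in UV2, namely Pdgfra, Pdgfrb and Col3a1. Over all tested genes 33.9% were called higher. Pdgfrb and Col3a1, with 21 and 68 counts over the bEnd.3 libraries against 302 and 2240, passed the filter through UV2. The calls of this list are therefore not read against that share. The summed level of the list was 3.33 to 3.50 CPM in bEnd.3 and 30.6 to 73.0 CPM in UV2. Most of that sum in each UV2 library was Col3a1, with Pdgfra next. The muscle filament gene Des was at 0 in both lines, the pericyte marker Rgs5 had 0 counts in bEnd.3 and 2 in UV2, and the fibroblast collagen gene Col1a2 had 0 and 6. The smooth muscle actin gene Acta2 had 0 counts over the bEnd.3 libraries and 39 over those of UV2, a UV2 mean 13.9 times the same floor. The pericyte proteoglycan gene Cspg4 went the other way with 7 and 1. The part of other cell types in the Cd248 trace was not tested.

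Mmrn1 encodes multimerin-1, a factor V-binding protein stored in platelets and endothelium and a marker of lymphatic endothelium. It had 0.583, 1.18 and 0.882 CPM in bEnd.3 and 1.48, 1.41 and 2.08 CPM in UV2. Each UV2 library was above each bEnd.3 library, although the gap between UV2 replicate 2 and bEnd.3 replicate 2 was small beside the spread within a line. These levels rest on 13 to 29 counts in bEnd.3 and 29 to 54 counts in UV2. The log2 fold change was 0.90 (SE 0.31). It no longer passed the threshold without bEnd.3 replicate 1 (log2 fold change 0.70), bEnd.3 replicate 3 (0.90) or UV2 replicate 3 (0.70), or with DESeq2 (0.91). Of 5 lymphatic markers, Lyve1, Pdpn and Reln were tested and called higher in UV2, beside 33.9% of all tested genes. Pdpn and Reln, with 0 and 7 counts over the bEnd.3 libraries against 425 and 79, passed the filter only through UV2. Nothing is therefore read from that share. The summed level of the list was 21.5 to 69.4 CPM in bEnd.3 and 1282 to 1375 CPM in UV2. Nearly all of it was Lyve1, at 41.3 ± 25.0 and 1311 ± 49.8 CPM. Prox1, the regulator of lymphatic identity, was all but absent, with 1 count over the bEnd.3 libraries and 0 over those of UV2. The lymph node chemokine gene Ccl21a went the other way, with 29 counts over the bEnd.3 libraries and 1 over those of UV2. The part of the lymphatic markers in the Mmrn1 difference was not tested.

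Emilin1 encodes EMILIN-1, an elastic fibre glycoprotein that binds the integrins α4β1 and α9β1. It had 1.08, 9.97 and 7.13 CPM in bEnd.3 and 0.296, 0.291 and 0.231 CPM in UV2. The lines did not overlap, but bEnd.3 replicate 1, with 24 counts against 245 and 210 in the other libraries of the line, was far below them and nearer to UV2. The means were 6.06 ± 4.54 and 0.273 ± 0.0358 CPM, and the log2 fold change was -4.47 (SE 0.85). It was -4.95 (SE 0.27) without bEnd.3 replicate 1 and -3.90 (SE 0.81) without bEnd.3 replicate 2. In UV2 the gene was at the edge of detection, with 6 or 7 counts in each library.

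Emilin2 encodes EMILIN-2, a matrix protein known to bind WNT1 and death receptors. It had 0.852, 0.570 and 0.407 CPM in bEnd.3 and 17.4, 25.0 and 14.1 CPM in UV2. All UV2 libraries were well above all bEnd.3 libraries, and UV2 replicate 2 was the highest. The bEnd.3 values rest on 19, 14 and 12 counts, against 365 to 515 counts in UV2. The means were 0.610 ± 0.225 and 18.8 ± 5.58 CPM, a ratio of 30.9, and the log2 fold change was 4.97 (SE 0.32). The lincRNA Gm26561 overlaps Emilin2 from the opposite strand. How the counting treated strand is not given in the sources used here, so reads of the pair cannot be told apart. Emilin2, like Cd93, is also expressed by myeloid cells. Of 10 blood cell and platelet markers, 6 were tested. Of these, 2 were called higher in UV2 (Cd68 and Lyz2), 1 lower (Itga2b) and 3 in neither direction. Over all tested genes 67.1% were called. The summed level was 105 to 172 CPM in bEnd.3 and 618 to 641 CPM in UV2. Most of it was Cd68 (116 ± 37.2 and 285 ± 49.8 CPM) and, in UV2, Lyz2. Lyz2, the lysozyme gene of macrophages, was at 1.27 ± 0.392 and 330.2 ± 55.3 CPM. The pan-leukocyte gene Ptprc had 1 count over the bEnd.3 libraries and 0 over those of UV2, and the macrophage gene Adgre1 was at 0 in all libraries. The myeloid integrin gene Itgam had 3 counts over the bEnd.3 libraries and 19 over those of UV2, 6.88 times as many per library total (95% counting interval 2.03 to 36.3), and its libraries did not overlap between the lines. The part of such cells in the Emilin2 level was not tested.

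Levels of different genes were compared as CPM per kilobase of exon. In bEnd.3 the order was Cd93 (155 ± 4.34 CPM per kb), Clec14a (101 ± 13.4), Mmrn2 (47.7 ± 0.863), Emilin1 (1.57 ± 1.18), Mmrn1 (0.197 ± 0.0667), Emilin2 (0.147 ± 0.0541) and Cd248 at 0. Mmrn1 and Emilin2 overlapped there, and Emilin1 in bEnd.3 replicate 1 (0.279 CPM per kb) was only just above the highest Mmrn1 value (0.264 CPM per kb). In UV2 Cd93 (148 ± 2.81 CPM per kb) and Clec14a (65.3 ± 7.32) came first again, and Emilin2 (4.52 ± 1.34) came next. Mmrn1 (0.370 ± 0.0829 CPM per kb) and Mmrn2 (0.286 ± 0.153) overlapped in UV2, as did Emilin1 (0.0708 ± 0.00930) and Cd248 (0.0628 ± 0.0385) at the lower end.

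The balance of ligand to receptor transcripts within a library therefore differed between the lines. Mmrn2 per Cd93, as a ratio of CPM per kb of exon, was 0.308, 0.311 and 0.302 in bEnd.3 and 0.00106, 0.00168 and 0.00310 in UV2. Mmrn2 per Clec14a was 0.560, 0.447 and 0.424 in bEnd.3 and 0.00250, 0.00414 and 0.00622 in UV2. The ratio of the receptors to each other moved far less, and Clec14a per Cd93 was 0.653 ± 0.0901 in bEnd.3 and 0.443 ± 0.0494 in UV2. These ratios follow from the levels above and are a description as well. Their size depends on the length used, but their change between the lines does not. Per kb of the longest coding sequence, bEnd.3 levels were 67.1 CPM for Mmrn2, 337 for Clec14a and 537 for Cd93.

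**Figure D2:**
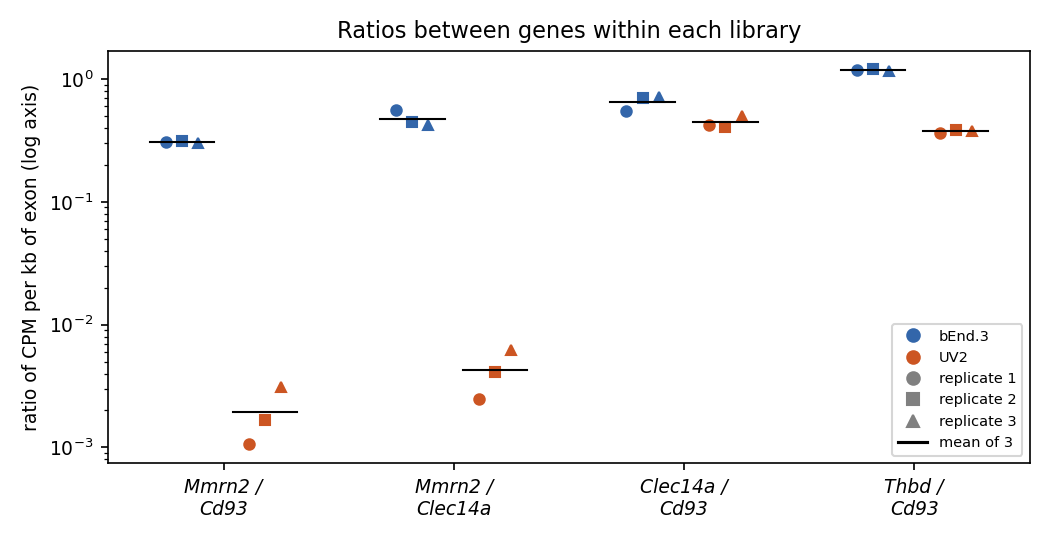
Ratios of CPM per kb of exon between pairs of genes within each library, on a log axis, with a symbol for each replicate number and a bar at the mean of 3 libraries. Mmrn2 per Cd93 was about 0.307 in bEnd.3 and 0.00195 in UV2, while Clec14a per Cd93 and Thbd per Cd93 stayed within the same order of magnitude.

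The remaining members of both families were examined as well. Thbd, which encodes the thrombin receptor thrombomodulin and completes the group XIV lectins, is the nearest tested gene before Cd93 on chromosome 2 (148404471 to 148408188), 28.5 kb away. It had 698, 669.8 and 690.0 CPM in bEnd.3 and 206, 207 and 205 CPM in UV2. Every UV2 library was below every bEnd.3 library, with hardly any spread among the UV2 libraries. Thbd fell by 1.74 on the log2 scale (SE 0.06, edgeR adjusted p = 4.04e-07). Thbd per Cd93, per kb of exon, was 1.19 ± 0.0126 in bEnd.3 and 0.375 ± 0.00793 in UV2. The order of Thbd and Cd93 in bEnd.3 depends on the length used. Per kb of the longest coding sequence, Thbd was at 396 ± 8.36 and Cd93 at 537 ± 15.0 CPM there. Emilin3 was too low to be tested, with 2 counts over the bEnd.3 libraries and 4 over those of UV2.

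Genes for partners of the axis went in both directions. Of 31 genes for ligands, receptors, cytoplasmic partners and proteases described for these proteins, 28 were tested, 12 were called higher in UV2, 11 lower, and 5 did not pass the test. This is 82.1% called, beside 67.1% of all tested genes, and the median log2 fold change was 0.09, beside -0.01 for all tested genes. This list and that of transcription factors below were also chosen with earlier results of these data known. Nothing is therefore read from their shares called, and adjusted p-values of single list genes carry the same limit. Among matrix and soluble ligands 4 of 11 tested genes were higher and 6 lower, and among receptors 3 of 10 were higher and 4 lower. Of the cytoplasmic partners 3 of 5 were higher and 1 lower, and both tested proteases were higher.

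**Figure D3:**
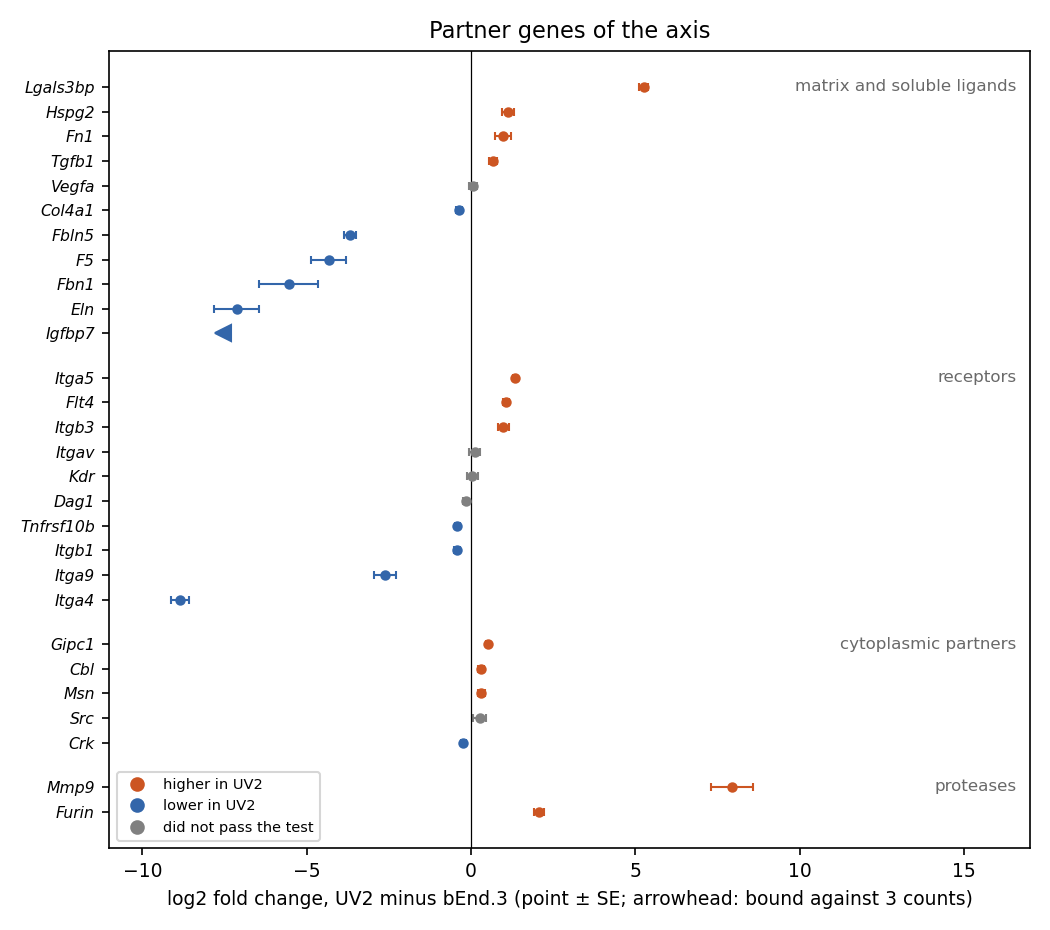
Log2 fold change (UV2 minus bEnd.3) of the 28 tested partner genes by role, with bars of 1 SE. Orange marks genes called higher in UV2, blue genes called lower and grey those that did not pass the test. Igfbp7 is drawn at the log2 ratio of a floor of 3 counts to its bEnd.3 mean. Itga4 and the elastic fibre genes Eln, Fbn1 and Fbln5 lie far to the left, and Mmp9 and Lgals3bp far to the right.

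Igfbp7, a secreted ligand of CD93 found on tumour vessels, had 11.3, 5.86 and 6.92 CPM in bEnd.3 and 0 counts in each UV2 library. It was called lower in UV2 (edgeR adjusted p = 7.82e-05). Its bEnd.3 mean was 188 times a floor of 3 counts over the UV2 libraries, or 0.0427 CPM. Fn1, the fibronectin gene, stood at 712 ± 104 CPM in bEnd.3 against 1408 ± 458 CPM in UV2 (a log2 fold change of 0.98, SE 0.24, edgeR adjusted p = 0.00734). UV2 replicate 3, at 884 CPM, was well below the other UV2 libraries and close to the highest bEnd.3 library at 827 CPM. Perlecan, Hspg2, rose as well (log2 fold change 1.13, SE 0.19). Lgals3bp, a reported ligand of CD248, rose from 1.78 ± 0.303 to 68.2 ± 3.21 CPM (log2 fold change 5.25, SE 0.13, edgeR adjusted p = 8.99e-08). Vegfa, the growth factor that multimerin-2 can bind, had 28.2 ± 2.94 and 29.5 ± 3.03 CPM and did not pass the test. F5, the factor V gene, had 51 counts over the bEnd.3 libraries against 2 over those of UV2, which is 23.5 times as many per library total (95% counting interval 6.17 to 199).

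Receptor genes of the same matrix differed by subunit. Itga5, the α subunit of the fibronectin receptor α5β1, rose from 561 ± 9.09 to 1425 ± 57.1 CPM (log2 fold change 1.34, SE 0.07, edgeR adjusted p = 2.17e-06). Itgb1, its β1 partner, was abundant in both lines and fell by 0.42 (SE 0.08) on the log2 scale. Itga4, the α4 subunit, had 270.4, 265 and 275 CPM in bEnd.3 against 1.06, 0.242 and 0.424 CPM in UV2 (a log2 fold change of -8.85, SE 0.27, edgeR adjusted p = 2.11e-07). The lines were far apart, and UV2 replicate 1 was the highest UV2 library. Without it the log2 fold change was -9.59. Itga9, the α9 subunit, fell by 2.61 (SE 0.34, edgeR adjusted p = 0.000289). The VEGF receptor Kdr (1554 ± 239.9 and 1598 ± 301 CPM) and the dystroglycan gene Dag1 (202 ± 18.8 and 180.1 ± 5.44 CPM) did not pass the test, although Dag1 passed without bEnd.3 replicate 1 (edgeR adjusted p = 0.0136) and with total counts (0.0415). Flt4, the VEGFR3 gene, rose from 212 ± 18.4 to 446 ± 29.1 CPM (log2 fold change 1.07, SE 0.09, edgeR adjusted p = 2.67e-05).

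Inside the cell, CD93 is linked to the cytoskeleton and to signalling through moesin, GIPC1, SRC, CBL and CRK. Gipc1 rose by 0.51 (SE 0.06) on the log2 scale. The ubiquitin ligase gene Cbl and the moesin gene Msn were called higher, and the adaptor gene Crk lower, with small differences (log2 fold changes 0.31, 0.31 and -0.23). These 3 calls depended on the setting. Cbl lost its call with total counts (edgeR adjusted p = 0.0610) and without bEnd.3 replicate 2, UV2 replicate 1 or UV2 replicate 2 (0.0585 to 0.0886). Msn lost it with total counts (edgeR adjusted p = 0.0628), with a replicate block (0.0526) and without replicate 2 or 3 of either line (0.0865 to 0.0966). Crk lost it without bEnd.3 replicate 2, UV2 replicate 1 or UV2 replicate 3 (edgeR adjusted p = 0.0517 to 0.0704). Src did not pass with all libraries (edgeR adjusted p = 0.288) and passed without bEnd.3 replicate 1 (0.00188). Of the proteases, Mmp9, a gelatinase that can cleave multimerin-2, had 2 counts over the bEnd.3 libraries against 530 over those of UV2, which is 288 times as many per library total (95% counting interval 79.3 to 2384). Furin, which matures the TGF-beta precursor that EMILIN-1 holds, rose from 225 ± 33.0 to 939.8 ± 152 CPM (log2 fold change 2.06, SE 0.15, edgeR adjusted p = 1.53e-05). Rhbdl2, a rhomboid protease of CLEC14A, had no counts.

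Of the matrix and soluble ligands, 3 genes of elastic fibres, picked out after the values were seen, were among the 6 called lower. Their p-values take no account of that choice. Eln, the elastin gene, had 24.0, 97.2 and 95.3 CPM in bEnd.3 against 0.507, 0.485 and 0.540 CPM in UV2 (a log2 fold change of -7.13, SE 0.69, edgeR adjusted p = 6.16e-05). Fbn1, the fibrillin-1 gene, had 3.00, 24.6 and 15.3 CPM in bEnd.3 against 0.169, 0.581 and 0.193 CPM in UV2 (a log2 fold change of -5.55, SE 0.90, edgeR adjusted p = 0.000947). Fbln5, the fibulin-5 gene, had 997, 1417 and 1437 CPM in bEnd.3 against 90.8, 90.2 and 117 CPM in UV2 (a log2 fold change of -3.69, SE 0.18, edgeR adjusted p = 1.90e-06). bEnd.3 replicate 1 was the lowest bEnd.3 library for all of these genes, for Emilin1 and for Itga9, a likeness likewise seen in the values first. Fbn1 shifted most when a library was left out, to -4.90 without bEnd.3 replicate 2 and to -6.26 without UV2 replicate 2.

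**Figure D4:**
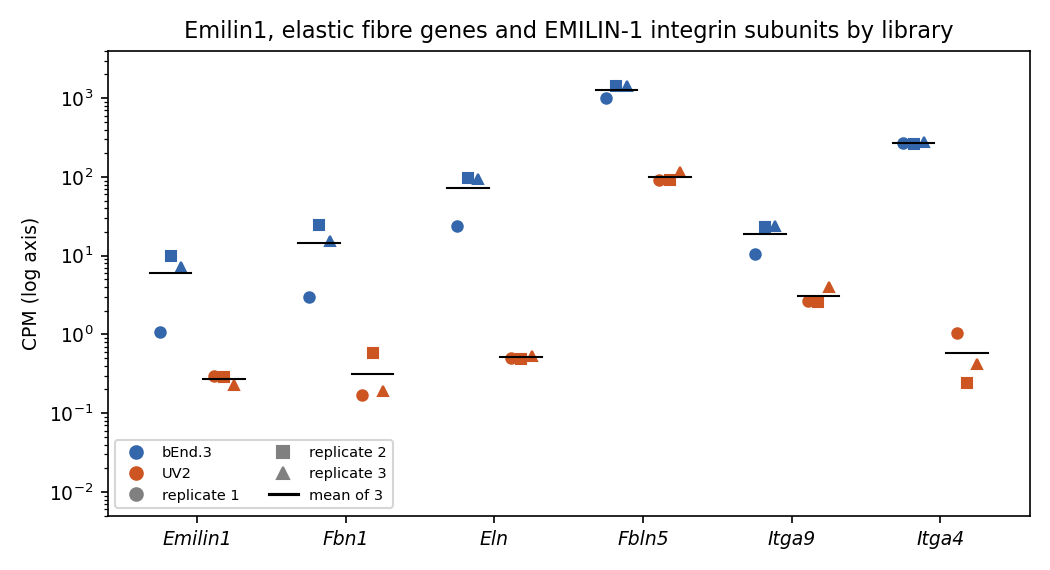
CPM of Emilin1, of the elastic fibre genes Fbn1, Eln and Fbln5 and of the integrin subunits Itga9 and Itga4 in each library on a log axis, with a bar at the mean of 3 libraries. The circle of bEnd.3 replicate 1 lies below the other bEnd.3 libraries for Emilin1, Fbn1, Eln, Fbln5 and Itga9, while for Itga4 the bEnd.3 libraries coincide near 270.3 CPM.

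Transcription factors of endothelium differed in both directions. Of 18 genes 17 were tested, 8 were called higher in UV2, 7 lower, and 2 did not pass the test, which is 88.2% called beside 67.1% of all tested genes, with a median log2 fold change of -0.23 beside -0.01 for all tested genes. Of the ETS factors Erg, Fli1, Ets1 and Elk3 were lower in UV2. Erg had 363 ± 35.9 and 286 ± 16.4 CPM (log2 fold change -0.35, SE 0.09, edgeR adjusted p = 0.00976), and Fli1 had 242 ± 14.8 and 151 ± 0.969 CPM (log2 fold change -0.68, SE 0.07). Ets2 was higher in UV2 (log2 fold change 0.56, SE 0.10). The largest differences were among SOX factors. Sox17 had 61.8, 65.3 and 52.7 CPM in bEnd.3 against 0.422, 0.242 and 0.308 CPM in UV2 (a log2 fold change of -7.49, SE 0.18, edgeR adjusted p = 8.90e-08). Sox7 was the gene of the list with the largest rise, from 50.9 ± 3.38 to 344 ± 29.5 CPM (log2 fold change 2.76, SE 0.09, edgeR adjusted p = 3.21e-07), and Sox18 was slightly lower (log2 fold change -0.49, SE 0.10). The flow-responsive factors Klf2 and Klf4 did not pass the test (edgeR adjusted p = 0.132 and 0.295), but they passed without UV2 replicate 3 (0.0365 and 0.00955) and with a replicate block (0.00566 and 0.0437), each time lower in UV2.

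The nearest tested genes along the chromosome went in both directions. Some lay far from their member, such as Xrn2 at 1358.7 kb from Cd93 and Sec23a at 689.1 kb from Clec14a. The 2 nearest tested genes on each side of the 7 members made 28 genes, of which 10 were called higher in UV2, 11 lower, and 7 did not pass the test, which is 75% called beside 67.1% of all tested genes, with a median log2 fold change of -0.11 beside -0.01. The lower calls numbered 7 without bEnd.3 replicate 2 and 7 without UV2 replicate 2. Bmpr1a, a BMP receptor gene 6.8 kb beyond the end of Mmrn2, had 0.354 ± 0.118 CPM in bEnd.3 against 9.66 ± 1.95 CPM in UV2 (a log2 fold change of 4.75, SE 0.27, edgeR adjusted p = 4.05e-06). It thus differed in the opposite direction to Mmrn2, and so did Wapal, a regulator of cohesin (log2 fold change 0.84, SE 0.07). Khk, the ketohexokinase gene 0.2 kb from Emilin1, was lower in UV2, as was Emilin1, but by far less (log2 fold change -0.59, SE 0.15, edgeR adjusted p = 0.00770). Lpin2, a phosphatidate phosphatase gene 2.4 kb from Emilin2, was higher in UV2 (log2 fold change 1.03, SE 0.07, edgeR adjusted p = 1.18e-05). On the other side of Emilin2, Smchd1 (log2 fold change -0.19, SE 0.07) and Ndc80 (-1.33, SE 0.37) were called lower. The call of Smchd1 depended on the setting, and Myom1, beyond Lpin2, did not pass the test.

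**Figure D5:**
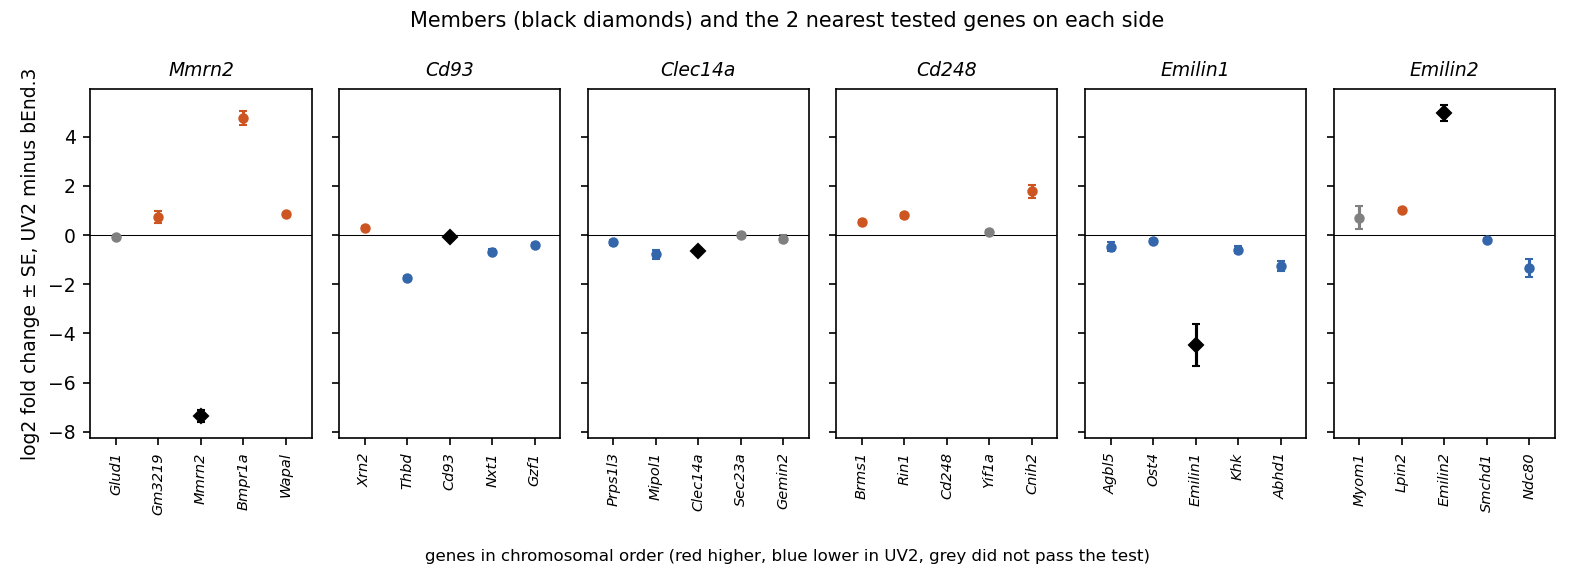
Log2 fold change (UV2 minus bEnd.3, ± SE) of the members other than Mmrn1, as black diamonds, and of the 2 nearest tested genes on each side in chromosomal order, orange for higher, blue for lower and grey for genes that did not pass the test (Cd248 was not fitted and has no diamond). Mmrn2 at -7.35 lies beside Bmpr1a at 4.75.

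The genes whose pattern over the 6 libraries was most like that of each member were found by the root mean square difference of gene-centred log2 CPM. With only 6 libraries in 2 groups, this mostly ranks genes by the size of their difference between the lines. Those log2 values carried a prior count of 2, which draws values near 0 together. For Mmrn2 they were Mtus2, N-cadherin (Cdh2) and the adhesion molecule Mcam, with differences of 0.181, 0.195 and 0.196 on the log2 scale. Mtus2 and Cdh2 were near 0 in UV2, at 0.0837 ± 0.0779 and 0.0385 ± 0.0668 CPM. Their fitted log2 fold changes were -8.05 and -8.74, and that of Mcam was -7.40, beside -7.35 for Mmrn2. Mcam stood at 1244 ± 133 CPM in bEnd.3 and at 7.31 ± 2.15 CPM in UV2. For Clec14a they were Srr, Natd1 and Mdfi, and for Cd93 Rbm15b, Dctn5 and Pstk, with differences of at most 0.0374 and 0.0270. For Emilin1 they were Col23a1, Megf11 and Pla2g16, with differences of 0.292, 0.492 and 0.540. For Emilin2 they were Fam19a1, Lrp1 and Slc38a1, and for Mmrn1 St6gal1, Foxp1 and Tbc1d8.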

How the data were processed

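Members, lists and tests were chosen with earlier results of these data known. The labels set the groups and replicate numbers. Per the submitters' processing notes, reads were processed with Trim Galore, STAR and RSEM on mm10. Not given in the sources used here are their versions, the annotation and the strand setting. The expected counts that the authors deposited are listed by gene symbol with no normalization, and 8.23% to 8.73% of values per library were not whole.

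Expected counts were rounded, filtered with filterByExpr, scaled by TMM (factors 0.969 to 1.03) and fitted by edgeR 4.0.16 (R 4.3.3), as a quasi-likelihood model with the line as its only term and Benjamini-Hochberg adjustment. The filter left 12720 genes. The fit was checked on simulated data. No 2 libraries of a line agreed within sampling noise. The biological coefficient of variation was 0.124. At this depth 3 counts over the libraries of a line, the floor used for a count of 0, equal 0.0393 CPM in bEnd.3 and 0.0427 CPM in UV2.

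Named were all members, list genes a result turned on, the 2 nearest tested genes on each side of a member in RefSeq order (99.6% of tested genes had a position), and the 3 genes closest to each member (10 CPM or more in the line where they are higher) by gene-centred log2 CPM. Kept out of the last were genes named Gm with digits, Rik, pseudogenes and mitochondrial genes. Alternatives were DESeq2's size factors, total counts, no filter, at least 1 CPM in 3 libraries, a replicate block, DESeq2 1.42.0, limma-voom (limma 3.58.1) and leaving out each library. Figures were drawn with matplotlib 3.10.9. The values of 1 neighbouring gene, and the plot of the neighbours of Mmrn1, are not reported here.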

Additional observations from a re-analysis of the deposited data

How the results depend on the processing

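Under 7 other settings and with each library left out, no fitted member changed direction. The Mmrn2 log2 fold change ranged from -7.89 to -7.04 when a library was left out, with -7.89 without UV2 replicate 3, beyond the spread between replicates. Cd93 gave -0.14 with total counts, beyond that spread. Mmrn1 kept its direction but not its call with DESeq2 or without any of 3 libraries, and without a filter Cd248 was tested and 3 members were called higher. Neighbour genes called lower numbered 7 to 11 with a library left out, the 7 being the number without either bEnd.3 replicate 2 or UV2 replicate 2. Of 94 list, marker and neighbour genes, 67 kept direction and side of the threshold in every setting they were fitted in and 27 did not. Csf1r, F5, Myom1 and Reln did not reach 1 CPM in 3 libraries and have no value under that filter. The 8 genes that reversed had not passed the test. With total counts, log2 fold changes turned to -0.0032 for Vegfa, -0.028 for Kdr, -0.036 for Cdh5, -0.010 for Icam2 and -0.049 for Sec23a. With a library left out, the lowest and highest values were -0.014 and 0.15 for Vegfa, -0.035 and 0.29 for Itgav, -0.094 and 0.19 for Kdr, -0.00070 and 0.086 for Cdh5, -0.017 and 0.13 for Icam2, -0.12 and 0.68 for Csf1r, -0.24 and 0.081 for Gp1ba and -0.024 and 0.045 for Sec23a. The causes were not tested. The replicate number as a block gave 4380 genes higher and 4302 lower, beside 4306 and 4232, and 11 partner genes higher and 11 lower. Deviations of same-numbered libraries correlated at 0.0854, 0.161 and 0.200. Each library correlated best with its own number, a hint from the data and not from the design, so the numbers were not taken as pairs. Depth limits Cd248, Mmrn2 in UV2, Mmrn1, Emilin1 in UV2 and Emilin2 in bEnd.3, which rest on few counts.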
